A study of Danio rerio with 4 samples.

Results

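A set of 1179 genomic sites in zebrafish heart cells carried lower H3K27ac signal when AP-1 was inhibited in epicardial cells and fibroblasts (Epi/FBs). They were selected on the measured signal itself, out of 15296 sites of chromosomes 1 to 25 that had a peak in each of the 4 libraries of the study, and out of 51678 merged sites in all. A site was taken when both Epi/FB:dnAP-1 values lay below both control values and the mean difference was at or below -0.8 on the log2 scale, each value being the log2 of the highest coverage of the site minus the median of its own library over the shared sites. The part of chromosome 4 from 30 Mb on and the unplaced sequences were not used for the choice.

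H3K27ac is the acetylation of lysine 27 of histone H3, a mark of active enhancers and promoters that is written by the acetyltransferases p300 and CBP. AP-1 is a dimer of Jun and Fos family proteins that binds enhancers and is induced by injury and inflammatory signals, and a dominant-negative form (dnAP-1) pairs with the native subunits and keeps the dimer from acting. After cardiac injury the Epi/FBs of the zebrafish heart become activated, migrate to the wound and secrete matrix and growth factors there.

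CUT&Tag, which uses an antibody to direct a transposase to marked chromatin, was carried out with freshly isolated noncardiomyocytes (nonCMs) of the injury area at 7 days after apex resection (7 dpa), as duplicate libraries of each group, so that 4 were compared. Epi/FB:dnAP-1 fish carried the Cre driver TgBAC(tcf21:Cre-ERT2) and a ubb:loxp-dsRed-loxp-Flag-dnAP-1 transgene and were treated with 4-hydroxytamoxifen, so that dnAP-1 was switched on where tcf21 drives Cre. Below, values are given for replicates 1 and 2 of Epi/FB:dnAP-1 (under dnAP-1) and then for replicates 1 and 2 of control. The controls of the inducible lines were, in the study's methods, fish of the same transgenes given ethanol vehicle, whereas the labels of these libraries give only a control genotype and name them WT. The cells were all nonCMs, not sorted Epi/FBs, so that less acetylation per cell and fewer cells of a type cannot be told apart. The labels do not say how many animals went into a library.

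The 4 peak lists held between 32638 and 38429 peaks and covered between 101.6 and 118.4 Mb. The depth of the libraries is not known from the lists. Coverage came in steps, of 0.68 in both Epi/FB:dnAP-1 lists and of 1.26 and 1.38 in the control lists, and every highest value was a whole multiple of the step of its list. Over the shared sites the centred values were spread more widely under dnAP-1, with an SD of 0.94 in each, than in the control libraries, with SDs of 0.77 and 0.76.

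Both Epi/FB:dnAP-1 values lay below both control values at 4511 shared sites, or 29.5% of all, and the size threshold kept 1179 of them, or 7.71%. The same rule turned round gave 3769 sites with both Epi/FB:dnAP-1 values higher, or 24.6%, and 162 sites past 0.8, or 1.06%. These shares describe the choice and carry no test, and 2 libraries against 2 allow no exact permutation p below 0.33. Lower sites outnumbered higher ones by little where only the overlap counted, and by far past the size threshold.

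The median of the highest signal at the lower sites was 12.9 and 12.2 under dnAP-1 and 22.7 and 20.7 in the control libraries, as deposited. Over all shared sites the order was the reverse, with medians of 39.4 and 38.8 against 32.8 and 27.6. By these medians the lower sites were weaker than shared sites at large in both groups. Their median difference was -1.09 (2.13-fold lower), with quartiles of -1.33 and -0.92, and it ran from -3.10 to -0.80. The replicates of these sites differed by a median of 0.28 in the Epi/FB:dnAP-1 pair and 0.24 in the control pair. The median gap between the highest Epi/FB:dnAP-1 value and the lowest control value was 0.81, all on the log2 scale. Over all shared sites these values were 0.19, 0.24 and -0.22, in the same order. The rule requires groups that do not overlap, so the gap is tied to the choice.

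**Figure D1:**
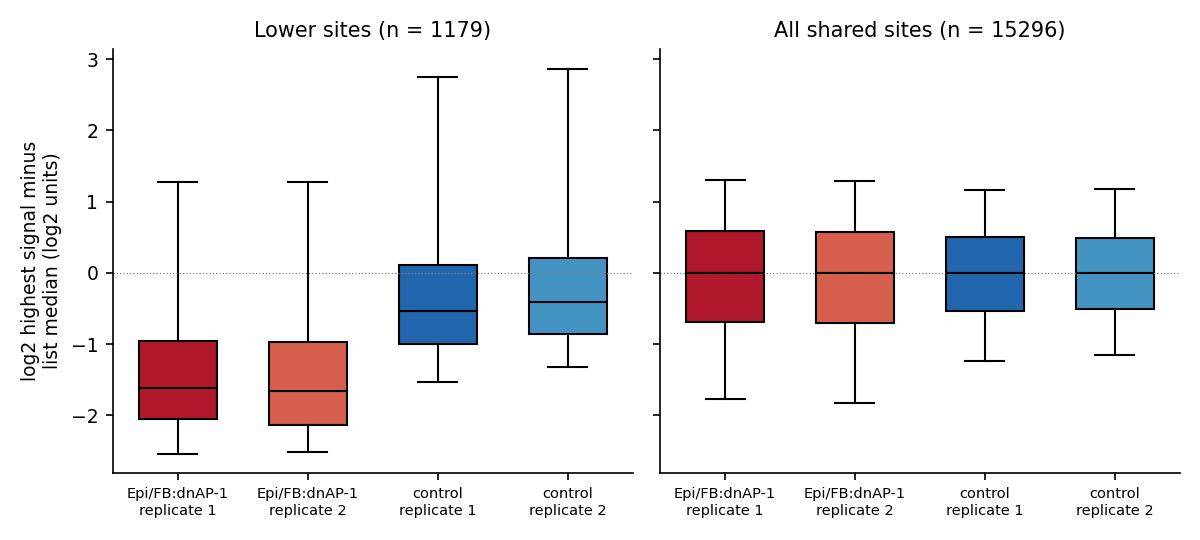
Log2 of the highest signal of a site minus the median of its list, in each of the 4 libraries, for the 1179 lower sites and for all 15296 shared sites. Boxes give the quartiles, lines the medians and whiskers the 5th and 95th percentiles, and the medians of the lower sites are -1.61 and -1.66 under dnAP-1 and -0.53 and -0.42 in the control libraries.

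The size of the difference rested on the scale. As deposited, without centring on the median of the list, both Epi/FB:dnAP-1 values were still below both control values at 1103 of the 1179 sites. When each value was instead divided by the step of its list, the medians were 19 and 18 steps under dnAP-1 and 18 and 15 steps in the control libraries. Only 119 sites then had both Epi/FB:dnAP-1 values below both control values, and 340 had both above. The median over all shared sites was 58 and 57 steps against 26 and 20. The lower sites are thus low relative to the other shared sites of the same library, and not in the number of steps.

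The total and the mean signal of the same sites also came out lower. By the total signal of the site the median difference was -0.80, and 939 of the 1179 sites (79.6%) had both Epi/FB:dnAP-1 values below both control values, against 25.7% of all shared sites. By the mean signal per covered base it was -0.73, with 1038 sites (88.0%) apart, against 27.0% of all shared sites. The whole rule, size included, was met by 584 of the 1179 sites (49.5%) on total signal and by 473 (40.1%) on mean signal. These measures come from the same coverage as the value that chose the sites. Covered length was shorter in both Epi/FB:dnAP-1 lists than in both control lists at 247 of the lower sites (20.9%), against 16.9% of all shared sites. The median covered length of the lower sites was 3357 and 3731 bp under dnAP-1 and 3870 and 3330 bp in the control libraries, so the groups overlapped. Covered length did not choose the sites, but it comes from peaks of the same coverage and is no separate measure.

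By the ratio of mean to highest signal, the lower sites as a set were flatter than shared sites at large. Their width was close to that of weak sites and of the higher sites. Their median width was 5310 bp against 4434 bp over all shared sites, but the 162 higher sites had a median of 5527 bp and all sites of the weakest decile by control signal one of 5267 bp. The range was 242 to 100189 bp. Among the 215 shared sites wider than 20 kb, 71 were lower sites (33.0%). The mean signal of a site was 0.36 of its highest signal in both libraries under dnAP-1 and 0.34 and 0.35 in the control libraries, by the median over the lower sites. Over all shared sites these ratios were 0.24, 0.24, 0.29 and 0.32. The highest signal chose the sites and enters this ratio, so that the ratio is tied to the choice. At the higher sites, chosen the other way, it was 0.15 and 0.16 under dnAP-1 and 0.29 and 0.33 in the control libraries. The ratio of weak sites at large is not given here. The position of the highest signal was less fixed as well, since the 4 summits spanned a median of 746 bp at the lower sites and 181 bp at all shared sites. All 4 summits lay within 100 bp of each other at 175 lower sites (14.8%), compared with 34.6% of all shared sites. The summits of most lower sites were thus not common to the 4 libraries. By the medians above, the lower sites were weaker than shared sites at large. The summit span of weak sites at large is not given here either.

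The share of lower sites depended on how strong a site was in the controls, in a way with a high end and a low end. The control level is here the geometric mean of both control maxima, as deposited. With the shared sites split into deciles by this level, among the 1530 sites of the weakest decile, 290 were lower sites (19.0%), and the share fell to 34 of 1530 (2.22%) in decile 8. It rose again to 163 of 1530 (10.7%) in the strongest decile, where none of the sites met the rule for higher sites. The median difference over all sites of a decile ran from -0.38 in the weakest to 0.08 in decile 9 and in the strongest, so that weak sites as a whole were lower. Since the control values enter both the level and the difference, this dependence is a description only.

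**Figure D2:**
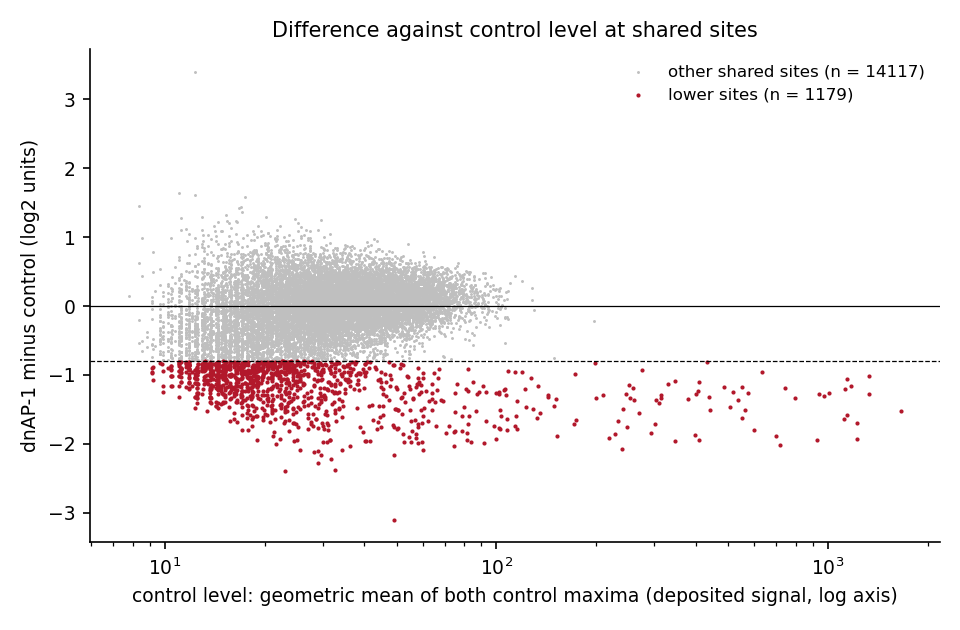
Difference between the mean Epi/FB:dnAP-1 and the mean control value (log2 units) against the control level (deposited signal, log axis) for every shared site, with the 1179 lower sites in red and the dashed line at -0.8. The red points fill the lower edge of the cloud at weak sites and make up every point above a control level of 200.

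The strongest sites behaved differently from the rest. All 61 shared sites with a control level over 200 were lower sites, as were 35 of the 66 sites (53.0%) between 100 and 200, against 47 of 1028 (4.57%) between 60 and 100. These limits were set after the values had been seen. The 61 sites had a median difference of -1.34 (2.53-fold lower), ranging from -2.07 to -0.81, and their median highest signal was 247 and 192 under dnAP-1 and 486 and 400 in the controls. They were 16842 bp wide in the median, lay on 19 chromosomes, and 43 of them had another lower site within 100 kb. Their ratio of mean to highest signal was 0.20 and 0.21 under dnAP-1 and 0.19 and 0.20 in the controls, below that of shared sites at large. Their summits lay closer together than those of the other 1118 lower sites, though not at every site. The median span was 36 bp, with 34 of 61 (55.7%) within 100 bp in all 4 lists. For the other 1118 it was 820 bp, with 12.6% within 100 bp. The other 1118 lower sites had a median width of 5221 bp, and the strong ones were thus the wider group. The call of the strong sites depended on the scale: after quantile normalization of the 4 lists, an alternative added after the values were seen, 16 of the 61 were still lower sites. This normalization gives sites of equal rank equal values. Sites that rank high in all 4 lists are thereby drawn together, so the 16 cannot decide whether their signal was lower.

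**Figure D3:**
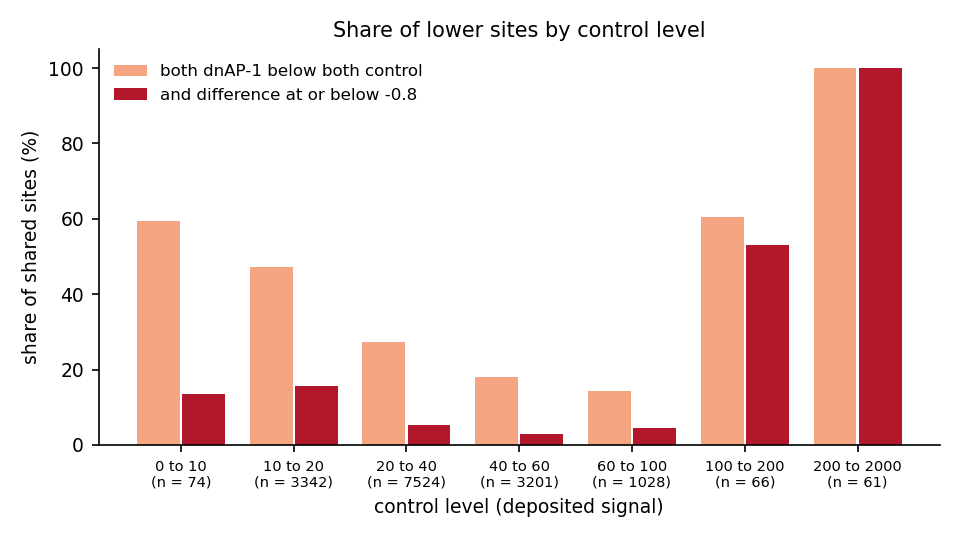
Share of shared sites (%) in bins of control level (deposited signal) that had both Epi/FB:dnAP-1 values below both control values, and that also had a difference at or below -0.8. The number of shared sites of each bin stands under it, and the share of lower sites is lowest, at 2.91%, between 40 and 60 and reaches 100% above 200.

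Of the 6 lower sites with the highest control level, the strongest was chr7:53010663-53038511, which had a highest signal of 866 and 658 under dnAP-1 and 1875 and 1477 in the control libraries. It was 2.86-fold lower, with a difference of -1.52, but its 4 summits spanned 7355.5 bp. A site of only 242 bp, chr17:53384663-53384904, had 748 and 679 against 1337 and 1330, with a difference of -1.28 and with all summits within 12 bp. On the same chromosome chr17:39923403-39966290 had 974 and 747 against 1452 and 1221, a difference of -1.02, with summits spanning 272 bp. In these sites the Epi/FB:dnAP-1 signal was still far above the median of the shared sites. After centring, the replicates of a group lay closer to each other than to the other group. The rule chose sites whose groups are apart on these centred values, so this says nothing further about them.

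The site chr15:7282034-7293051 had 585 and 409 against 1358 and 1103 (difference -1.70). The site chr24:12357332-12375567 had 450 and 390 against 1264 and 1180 (difference -1.92), and chr10:16815399-16847631 had 773 and 609 against 1276 and 1082 (difference -1.15). No gene annotation was used for these positions, so what lies in them is not given here.

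The same comparison was made where no lower site could be chosen. The mitochondrial genome, which carries no histones, had 1 site in all 4 lists, with a highest signal of 237 and 288 under dnAP-1 and 597 and 334 in the control libraries. Its difference was -1.15 after the same centring, close to the median of the lower sites. Chromosome 4 from 30 Mb on held 445 shared sites with a median difference of -0.78, of which 217 (48.8%) would have met the rule, and the unplaced sequences held 1769 with a median of -0.11, of which 181 (10.2%) would have. The part of signal that does not come from acetylated histones in the values of the lower sites was not tested.

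The 12 lower sites with the most negative difference had highest signals between 22.1 and 63.5 in the control libraries. The lowest of all was chr1:587403-591339, a site of 3937 bp with a highest signal of 6.8 and 8.16 under dnAP-1 and 56.7 and 42.8 in the control libraries. It was 8.60-fold lower, with a difference of -3.10, and had 1 peak in every list. In steps it stood at 10 and 12 against 45 and 31, so that it was lower on that scale as well. No other site of the set passed -2.4.

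The next was chr7:64923844-64936598, with 4.76 and 6.8 against 23.9 and 22.1 (difference -2.39). It was followed by chr5:53424124-53446663, with 8.16 in both libraries under dnAP-1 against 35.3 and 30.4 (difference -2.38), and by chr12:8410790-8413653, with 8.16 and 7.48 against 26.5 and 31.7 (difference -2.27). The site chr20:55170971-55201331 spanned 30361 bp and had 8.16 and 9.52 against 31.5 and 31.7 (difference -2.22). At each of them both Epi/FB:dnAP-1 values stood below 10.

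The site chr25:3573-10213 had 13.6 and 15.0 against 52.9 and 45.5 (difference -2.16), and chr22:27227-30495 had 19.0 and 17.7 against 56.7 and 63.5 (difference -2.09). Both lie at the start of their chromosome, with summits within 89 and 143 bp in the 4 lists. The replicates of Epi/FB:dnAP-1 were apart at chr11:27180806-27191219, with 13.6 and 5.44 against 30.2 and 29.0, and the difference was -2.16. The remaining sites of the 12 were chr21:18529494-18539257 (difference -2.11), chr5:53316573-53329728 (difference -2.10), chr8:569197-575050 (difference -2.09) and chr5:53285917-53296184 (difference -2.08), with Epi/FB:dnAP-1 values of 7.48 to 10.9 and control values of 23.5 to 35.9. The summits of these remaining sites spanned 891.5 to 1325.5 bp, and those of the chromosome 11 site 3782 bp. In all, 16 lower sites had a difference at or below -2, and 724 at or below -1.

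The threshold cut through a continuous range. The 5 lower sites just inside it had differences from -0.8022 to -0.8007, and the 5 sites just outside it from -0.7993 to -0.7991. Just inside, chr16:54331084-54335024 had 15.0 and 19.0 against 26.5 and 19.3, and chr20:51772314-51776417 had 17.7 and 19.7 against 18.9 and 33.1. Just outside, chr12:17222705-17235031 had 17.7 in both libraries under dnAP-1 against 29.0 and 19.3, and chr21:1158307-1162210 had 12.2 and 14.3 against 18.9 and 16.6. These sites do not differ in kind.

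The lower sites were found on all 25 chromosomes, and from 5.14% of the shared sites (chromosome 19, 34 of 662) to 10.5% (chromosome 8, 70 of 668) belonged to them. Within a chromosome they tended to lie next to each other. Another lower site was found within 100 kb of 481 of them (40.8%), whereas 19.1% of the other shared sites had a lower site at this distance. There were 147 runs of 2 or more lower sites with no other shared site in between, which held 382 of them (32.4%). Most runs were short, with 102 of exactly 2 sites and 26 of 3, and 9 runs held 5 or more.

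The longest lay on chromosome 8, where a run of 11 sites (chr8:34430047-34705486) and a run of 8 (chr8:34725220-35911964) were parted by 1 shared site with a difference of -0.66. From the first to the last, 19 of 20 shared sites over 1.48 Mb were lower sites, with differences between -1.58 and -1.02. The centres of 18 of them lay within 635 kb of the start of the first, and the last lay apart, at 1479.6 kb. The 11 sites of the first run had median highest signals of 31.3 and 27.2 under dnAP-1 and 47.9 and 52.4 in the control libraries, with ranges from 8.16 to 37.4 and from 22.7 to 64.9, and they covered 233 of 275 kb. The second run held the very strong site chr8:34765486-34814357, with 572 and 428 against 1229 and 1056.

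On both sides of the stretch the next shared site had nearly the same centred value in both groups. The shared site that ends 1.31 kb before it had 74.1 and 52.4 under dnAP-1 and 54.2 and 46.9 in the control libraries, a difference of -0.07. The shared site 41.8 kb after it had 110 and 95.2 against 79.4 and 70.4, a difference of 0.08. Of the 4 shared sites in the 1 Mb before the stretch 1 was a lower site, and of the 6 in the 1 Mb after it none was.

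**Figure D4:**
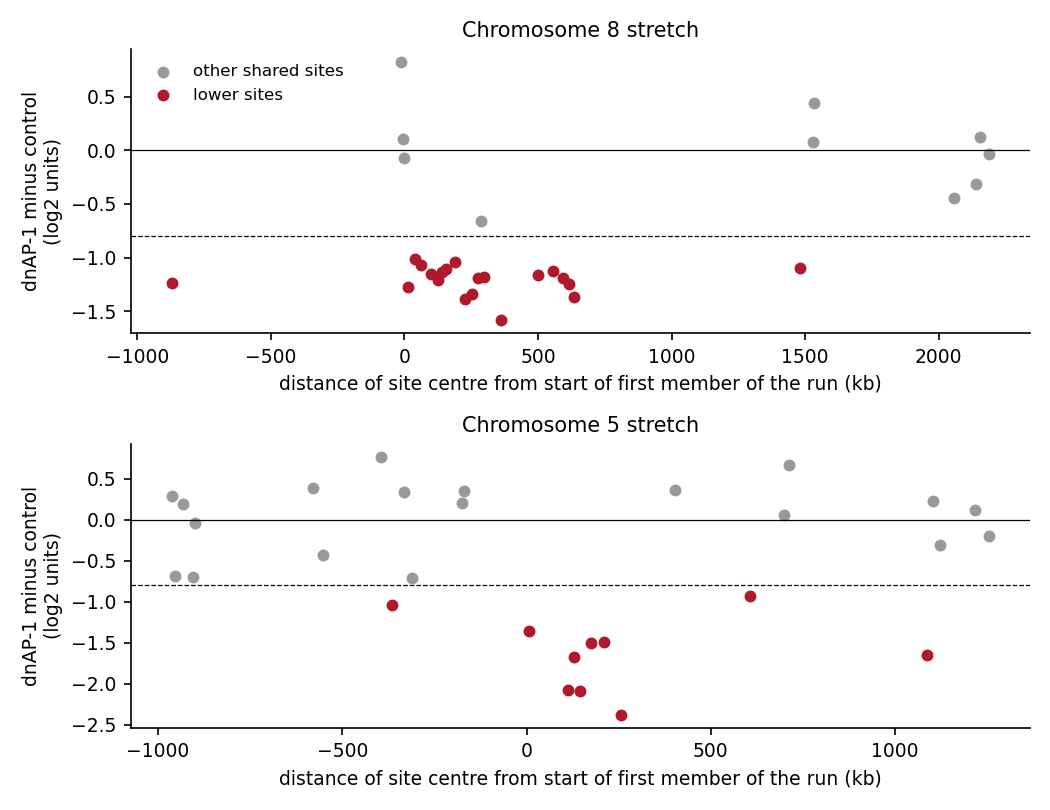
Difference between Epi/FB:dnAP-1 and control (log2 units) of each shared site against the distance of its centre from the start of the first site of the run (kb), for the stretches of chromosome 8 and chromosome 5 and 1 Mb on both sides. Lower sites are red, other shared sites grey and the dashed line is at -0.8, and 19 of 20 sites of the chromosome 8 stretch and 7 of 7 of the chromosome 5 stretch lie below it.

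A run of 7 sites on chromosome 5 (chr5:53177875-53446663) was lower by more, with differences from -2.38 to -1.36. It includes 3 of the 12 sites with the most negative difference. Its median highest signals were 11.6 and 15.6 under dnAP-1 against 35.3 and 35.9 in the control libraries. The nearest shared sites, 167 kb before it and 134 kb after it, had differences of 0.35 and 0.36. The run thus stood between sites of positive mean difference, but at the site before it the centred values of the groups overlapped.

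The run of 6 sites on chromosome 24 (chr24:12357332-12566070) held very strong sites, with differences between -2.01 and -1.75. Median highest signals there were 138 and 122 under dnAP-1 and 413 and 360 in the control libraries, and the sites covered 177 of 209 kb. The shared sites beside it had differences of -0.14 and -0.11. Further runs of 6 lay at chr6:17261965-17637808, chr5:43118717-43287522 and chr7:64774656-64936598, with median differences of -1.35, -1.70 and -1.67, and runs of 5 at chr4:28550836-28710032 and chr15:47300245-47426521, with -1.29 and -1.11. Sites of a run share their neighbourhood and are not replicates of each other.

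Lower sites were also frequent towards the ends of the chromosomes, the ends being taken as the first base of the assembly and the last peak. Within 100 kb of an end 44 of 189 shared sites were lower sites (23.3%), and the share was 13.5% between 100 and 500 kb, 15.5% between 500 and 1000 kb, 8.41% between 1000 and 5000 kb and 6.76% further inside. All shared sites within 100 kb of an end had a median difference of -0.21. Even so, 795 of the lower sites lay over 5000 kb from an end.

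Genes were placed only through a table of the study that lists active open chromatin regions of Epi/FBs overlapping known candidate tissue regeneration enhancer elements. It gives a gene symbol for 1998 of the 1999 elements read. The rows used here are a part of that table, without chromosomes 8 and 9, and a symbol is the gene the study linked to the element, not a target shown here. An element lay inside 16 of the lower sites (1.36%), against 1.54% of all shared sites, and within 50 kb of 150 of them (12.7%), against 16.6% of all shared sites. Lower sites were thus not more often near these elements than shared sites at large. The elements are only some of the open regions of Epi/FBs. Nearness to Epi/FB open chromatin as a whole is therefore not given by these shares. The 150 sites took in 134 symbols. The median control level of the 16 was 23.1, against 21.3 for all lower sites and 25.0 for all 235 shared sites with an element.

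Regulators of the epicardium and of fibroblasts were at 2 of them. The site of sox9b (chr3:62529257-62537455), which encodes a Sox transcription factor of cartilage and of other matrix-producing cells, had a highest signal of 18.4 and 13.6 under dnAP-1 and 35.3 and 26.2 in the control libraries, with a difference of -1.32. The site of twist1b (chr16:19713406-19715870), which encodes a basic helix-loop-helix factor of mesenchymal cells, had 19.7 and 14.3 against 25.2 and 22.1, with a difference of -0.87. Both sites were chosen for groups that do not overlap, so that this says nothing further about them. The summits of the 4 lists lay within 45 bp at twist1b and within 242.5 bp at sox9b.

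The sox9b locus held 3 lower sites among 5 shared sites within 50 kb of its elements. It lies towards the end of chromosome 3, and lower sites were frequent towards chromosome ends in general. Their share was 23.3% within 100 kb of an end and 13.5% between 100 and 500 kb. Besides the site above, chr3:62511939-62524071 had 10.2 and 12.2 against 17.6 and 17.9 (difference -1.05), and chr3:62485762-62497760 had 10.9 and 10.2 against 17.6 and 12.4 (difference -0.87). The site next to the latter missed the threshold at -0.79. The fifth, chr3:62504172-62507862, went the other way, with 28.6 and 18.4 against 12.6 and 15.2 (difference 0.35). The signal around sox9b was thus lower at most sites but not at all of them.

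Further sites with an element inside carried genes of varied function. The largest difference was at cygb1, which encodes a cytoglobin, with 10.2 and 9.52 against 21.4 and 29.0 (difference -1.72). The sites of med17, a subunit of the Mediator complex, and of clrn1, a clarin membrane protein, were the strongest. At med17 the values were 55.8 and 52.4 against 100.8 and 99.4 (difference -1.27). The med17 site lies within 100 kb of the start of chromosome 15, and 23.3% of shared sites so near an end were lower sites. At clrn1 the values were 56.4 and 55.8 against 102.1 in both controls (difference -1.24). The control levels of med17 and clrn1 were 100.1 and 102.1. Of all shared sites with a control level between 100 and 200, 53.0% were lower sites. The site of f3b, which encodes tissue factor, the initiator of blood clotting, had 11.6 and 9.52 against 20.2 and 16.6 (difference -1.18).

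The sites of ccdc24, zgc:158263, art4, fam49al and ppm1ba had differences of -1.01, -1.01, -0.96, -0.95 and -0.93. Those of tspan18b, urm1, fscn2a, dido1 and cox4i2 lay between -0.86 and -0.83. The 4 summits spanned 2860.5 bp at cox4i2, 2540.5 bp at zgc:158263 and 1845 bp at urm1. They spanned 928 bp or less at the other sites of this paragraph. At urm1, which encodes a ubiquitin-like modifier, the libraries overlapped as deposited, with 10.9 and 16.3 against 13.9 and 24.8, and were apart only after centring. At ppm1ba, a protein phosphatase gene, the values of 17.0 and 15.0 against 30.2 and 17.9 left control replicates further apart than the groups, as deposited.

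**Figure D5:**
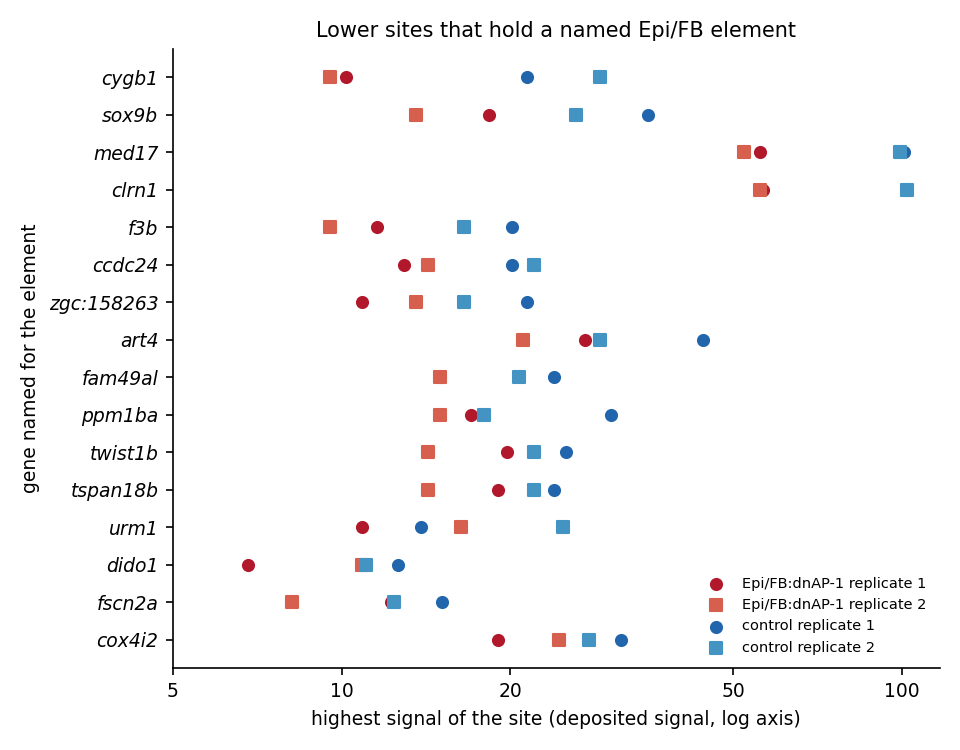
Highest signal (deposited signal, log axis) of the 16 lower sites that hold an element of the study's table, named by the gene of the element, in each of the 4 libraries. Red symbols (Epi/FB:dnAP-1) lie left of blue ones (control) at all sites but urm1, where replicate 2 of Epi/FB:dnAP-1 (16.3) lies right of replicate 1 of control (13.9).

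Genes of the study's themes were looked up by role. Of all 235 shared sites with an element, 6.81% were lower sites and the median difference was -0.11. Of 26 epicardial and fibroblast regulators, 22 had an element, 4 shared sites held one, and 2 of the 4 were lower sites. The other two, at aldh1a2, the enzyme of retinoic acid synthesis, and at hic1, had differences of -0.28 and -0.27. Of 42 genes of matrix and adhesion, 35 had an element and 3 shared sites held one, none of them a lower site: itga5, which encodes a fibronectin receptor subunit, had a difference of -0.60, plod2, a collagen lysyl hydroxylase gene, -0.25, and loxl1, a collagen and elastin cross-linking enzyme gene, 0.34. The medians of these lists were -0.58 and -0.25, against -0.11 over all sites with an element, but rest on 4 and 3 sites. The first includes the 2 sites that the rule chose. Over all shared sites within 50 kb of an element of the list, the medians were -0.04 (29 sites) and 0.06 (43 sites).

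Of 29 secreted factors and receptors, 28 had an element and 4 shared sites held one, none a lower site. The site of fgf7, a gene for a growth factor that acts on epithelia, came nearest, with 15.0 and 10.2 against 15.1 and 16.6 and a difference of -0.74. Within 50 kb of an element of this list lay 45 shared sites, of which 5 were lower sites (11.1%), against 5.90% of all shared sites at this distance from an element. For the epicardial and fibroblast regulators these were 4 of 29 sites, for AP-1 and Hippo-Yap/Tead 3 of 21, and for matrix and adhesion none of 43. The 5 were both shared sites near gdnfa (differences of -1.48 and -1.14), a neurotrophic factor gene, the only shared site near fgf1b (-0.98), 1 of 2 near vegfd (-1.70), a gene for a vascular and lymphatic growth factor, and 1 of 3 near angpt1 (-0.90), a gene for a Tie2 ligand. The site near vegfd (chr11:29946149-29952127) had 27.2 and 21.1 against 63.0 and 56.6. The site near fgf1b was strong, with 125 and 104 against 198 and 152. Of all shared sites with a control level between 100 and 200, 53.0% were lower sites.

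Of 23 genes of AP-1 and of the Hippo-Yap/Tead pathway, 9 had an element and 3 shared sites held one, none a lower site. Near june, a Jun family gene, 2 of 7 shared sites were lower sites, chr5:377233-389322 with 10.2 and 10.9 against 17.6 and 20.7 (difference -1.24) and chr5:359378-363369 with 14.3 in both libraries under dnAP-1 against 23.9 and 19.3 (difference -0.97). The site between them, which holds the june element, had 27.2 and 29.9 against 22.7 and 29.0 (difference -0.22). Near map2k4b, a kinase gene of the Jun N-terminal kinase cascade, 1 of 3 shared sites was a lower site, with a difference of -1.39. The site with the map2k4b element had a difference of 0.36. The lower sites near june and map2k4b lie between 100 and 500 kb from the start of their chromosomes. Of all shared sites at this distance from an end, 13.5% were lower sites. Another shared site near june that was not a lower site, chr5:350479-358235, was as weak in the controls, at 18.9 and 19.3, with 18.4 and 16.3 under dnAP-1 (difference -0.52).

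Marker genes of other cell types were looked up in the same way, since all nonCMs were profiled. Shared sites with an element were found for 2 endocardial or endothelial genes, clec14a (difference 0.69) and nppc (-0.19), and for 3 macrophage or leukocyte genes, hvcn1 (0.68), mafba (0.33) and irf8 (0.18), and none was a lower site. No shared site with an element was found for the lists of erythrocyte and thrombocyte, cardiomyocyte or epicardial and fibroblast markers, whose defining genes were mostly without an element. Within 50 kb of an element lay 12 endocardial or endothelial, 10 macrophage or leukocyte, 5 erythrocyte or thrombocyte and 6 epicardial and fibroblast marker sites. None of them was a lower site, and the median differences were 0.08, 0.13, 0.07 and 0.19. Of all shared sites within 50 kb of an element, 5.90% were lower sites, and the marker sites are too few to tell none from this share. The makeup of the cell population therefore cannot be read from these sites, and its part in the lower sites was not tested.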

How the data were processed

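H3K27ac CUT&Tag peak lists of 2 Epi/FB:dnAP-1 and 2 control libraries were used, grouped by the sample labels. Per the labels and the methods, the authors used cutadapt 2.7 to remove adaptors and Bowtie2 2.2.5 to align the reads (build GRCz11), dropped unmapped reads (SAMtools 1.9) and duplicates (Picard), scaled the coverage by a ChIPseqSpikeFree factor, wrote it with bedtools and called peaks in each library with SEACR. The deposited values are signal: scaled coverage, summed over a peak or at its maximum. They are not counts, and no count model was used.

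Overlapping peaks (1 bp or more) of the 4 lists were joined into sites with Python 3.11.15 and pandas 2.3.3. The code of the rule was run on simulated lists with less replicate noise than these data and the same spread in all 4 lists. That run checks the code and not how the rule performs on these data. Coordinates are those of GRCz11, counted from 1. The sites and the gene lists were chosen with earlier results of these data known. Named in full are the 12 lower sites of most negative difference, the 6 of highest control level, sites on both sides of the threshold, and those with an element of the study's table inside, whose positions were taken as GRCz11. Every value of the contrast chose the sites, so none was tested. A GRCz11 sequence and annotation were not used here, so motifs, sequences and distances to genes were not analysed. Alternatives were other measures, centring, thresholds, merging and peak filters, and leaving out each library. Quantile normalization and leaving out the strongest sites were added after seeing the data.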

Additional observations from a re-analysis of the deposited data

How the results depend on the processing

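The labels number the replicates and do not link an Epi/FB:dnAP-1 library to a control library. No paired analysis was made, and the results come from no test. The median difference of the lower sites stayed within the replicate SD (0.23 on the log2 scale) of its value of -1.09 under all 18 alternatives, which the threshold itself helps to fix. The number of sites depended on the scale: 466 of the 1179 were called without centring and 7 in steps, with median widths of 5940 and 10414 bp and 36.5% and 0% of sites having another within 100 kb. Quantile normalization of the lists, which removes the wider spread of the Epi/FB:dnAP-1 values, gave 496 sites, 487 of them among the 1179, with 35.1% having another within 100 kb, and kept 16 of the 61 strongest. Since it gives sites of equal rank equal values, the 16 cannot decide whether the signal of the 61 was lower. The mean signal per covered base gave 629 sites (width 5727 bp, 30.5%), and the total signal gave a width of 6019 bp and 32.3%. A threshold of -1 gave 724 sites (5691 bp, 37.6%) and of -0.6 gave 1887 (4969 bp, 44.5%). Peaks covering at least 50% of the site gave 681 sites (4509 bp, 31.6%), and the top 50% of each list gave 419 (6996 bp, 36.3%). Within 50 kb and 200 kb, 31.8% and 50.6% had another lower site. Leaving out each library gave 1207 to 1461 sites, median differences of -1.12 to -1.06, widths of 5010.5 to 5267 bp and 37.0% to 41.0% with another within 100 kb. Fewer values must then be apart, so the no-overlap condition is looser and these counts do not measure stability. Of the 1179, between 974 and 1055 were still lower sites. The cause of these changes was not tested. The motif alternatives were not run, as no GRCz11 sequence was used.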

Other observations

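Several lower sites lay near genes outside the lists above, and the following were chosen after their values were seen. Of all shared sites within 50 kb of an element, 5.90% were lower sites, and the shared sites near each of these genes were not counted. Near nrxn2b, which encodes a neurexin, 4 lower sites lay within 50 kb of an element, with differences of -1.61, -1.48, -1.23 and -0.99. They lie between 500 and 1000 kb from the start of chromosome 7. At this distance from an end 15.5% of shared sites were lower sites. Near arl1, which encodes a small GTPase of the Golgi, there were 3, with differences of -1.35, -0.99 and -0.89, and near pdlim5b, which encodes a PDZ and LIM domain protein of actin filaments, also 3, with differences of -1.07, -1.01 and -0.88. The site 41.6 kb from an element of hdac11, a histone deacetylase gene, was among the most negative of all (difference -2.16), although its Epi/FB:dnAP-1 replicates were apart at 13.6 and 5.44 against 30.2 and 29.0 in the controls. The strong site 22.4 kb from an element of mir461 had 237 and 212 under dnAP-1 against 606 and 589 (difference -1.79). Its control level was over 200, and all 61 shared sites over this level were lower sites. The values near these genes all rest on the contrast that chose the sites and carry no test.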
